A study of Mus musculus with 20 samples.

Results

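The livers compared here are the 10 of 20 in the series that came from mice given corticosterone (CORT), 5 of them from mice injected with an antibody against acyl-CoA-binding protein (αACBP + CORT) and 5 from mice injected with an isotype control antibody (Isotype + CORT). They were chosen by their labels alone, and every gene of the deposited count table was considered. All mice were female and were labelled as of the C57BL/6 strain (C57BL/6J in the methods) and 8 weeks old. The methods take 8-week-old mice into the experiment and collect tissue at the end of week 5, so 8 weeks is read as the age at the start. CORT was given at 100 μg per ml of drinking water for 5 weeks, and the vehicle mice drank water with the ethanol in which CORT is dissolved. The antibody was a monoclonal IgG2a that neutralizes ACBP, injected into the peritoneum at 5 mg per kg 2 times per week, and the control was an IgG2a at the same dose. The other 10 livers, from mice given the same antibodies with vehicle (Isotype + Vehicle and αACBP + Vehicle, 5 each), enter the same statistical model and serve as the comparison without CORT.

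ACBP, also called diazepam-binding inhibitor and encoded by Dbi, binds acyl-CoA esters inside cells and is also released from them, and outside the cell it acts on lipid metabolism and appetite. Corticosterone is the main glucocorticoid of rodents. In the liver it acts through the glucocorticoid receptor on hepatocytes and on the resident macrophages, called Kupffer cells, it induces enzymes of glucose and lipid metabolism, and it represses many genes of inflammation and interferon signalling. The question put to these 10 livers is which transcripts differ when ACBP is neutralized while CORT is present.

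Between 15570171 and 20089654 read pairs were counted on genes in each of the 10 livers, and these totals did not differ between the groups (p = 0.286 in an exact permutation test, two-sided, n = 5 per group; the smallest p possible is 0.00794). Alb, the albumin gene that defines hepatocytes, was at a mean of 84900 CPM (counts scaled to a common library size and normalized by TMM) with isotype and 63090 CPM with αACBP. Dbi itself, the gene of the neutralized protein, lay at 588, 697, 780, 808 and 1030 CPM in the Isotype + CORT livers and at 855, 858, 588, 839 and 676 CPM in the αACBP + CORT livers. The antibody binds the protein and not the transcript, and the Dbi levels overlapped between the groups (two-sided exact permutation test, p = 0.881). The transcript of the glucocorticoid receptor, Nr3c1, ranged from 36.8 to 63.3 CPM with isotype and from 36.9 to 58.5 CPM with αACBP, a log2 fold change of -0.05 (SE 0.17, adjusted p = 0.965). Outside these 10 livers, αACBP + Vehicle replicate 5 stood apart, with 12.5% of its counts on the 20 most abundant genes against 19.9% to 27.3% in all the others, and the results that use the vehicle livers are given below with and without it.

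Of 16071 genes tested, 96 were called changed by αACBP under CORT (0.597%). A gene was called where its log2 fold change was 1 or more in size and its p from edgeR's quasi-likelihood test, adjusted across genes after Benjamini and Hochberg, did not exceed 0.05. Most of these rose. With the antibody 81 genes were higher (0.504% of those tested) and 15 were lower (0.0933%). The rises had a median log2 fold change of 1.45 and the falls one of -1.18, whereas the median over all genes tested was 0.01. In 75 of the 96 genes the 5 livers of one group all lay outside the range of the other group, a separation found in 517 of all genes tested (3.22%). Among the genes that rose were acute-phase proteins, interferon-stimulated genes, antigen presentation genes and macrophage genes, and among those that fell were enzymes and transporters of lipid, glycogen and steroid metabolism. Of the 96 genes, 33 belonged to 1 of the 35 gene lists examined, C1qa belonged to 2 and 62 belonged to none. The lists were drawn up with earlier results of these data known, so the shares called within them describe and do not test.

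The number called depended on single livers and on the model. It was 191 without Isotype + CORT replicate 3, 58 without Isotype + CORT replicate 1, 52 without αACBP + CORT replicate 3 and 60 without αACBP + CORT replicate 5 (51 higher, 9 lower). When the 10 CORT livers were filtered, normalized and fitted alone, 14627 genes were tested and 27 called, 24 higher and 3 lower. Of the 96 genes, 26 stayed called there, 66 did not and the rest were not tested. Isotype + CORT replicate 3 had the highest level of its group for 51 of the 77 genes that rose and had counts with isotype. Conversely, Isotype + CORT replicates 1 and 5 each had the highest level of their group for 7 of the 15 genes that fell. Among the livers with the antibody, αACBP + CORT replicate 5 had the lowest level for 13 of those 15 genes and the highest level for 24 of the 81 that rose. Mitochondrial genes held 9.03% of the counts of this liver, against 4.11% to 4.85% in the other livers of its group and 4.08% to 6.5% with isotype, and their part in the result was not tested. Every one of the 96 genes kept its direction when any of the 10 livers was left out, and 38 were called each time. These omissions kept the vehicle livers in the model.

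**Figure D1:**
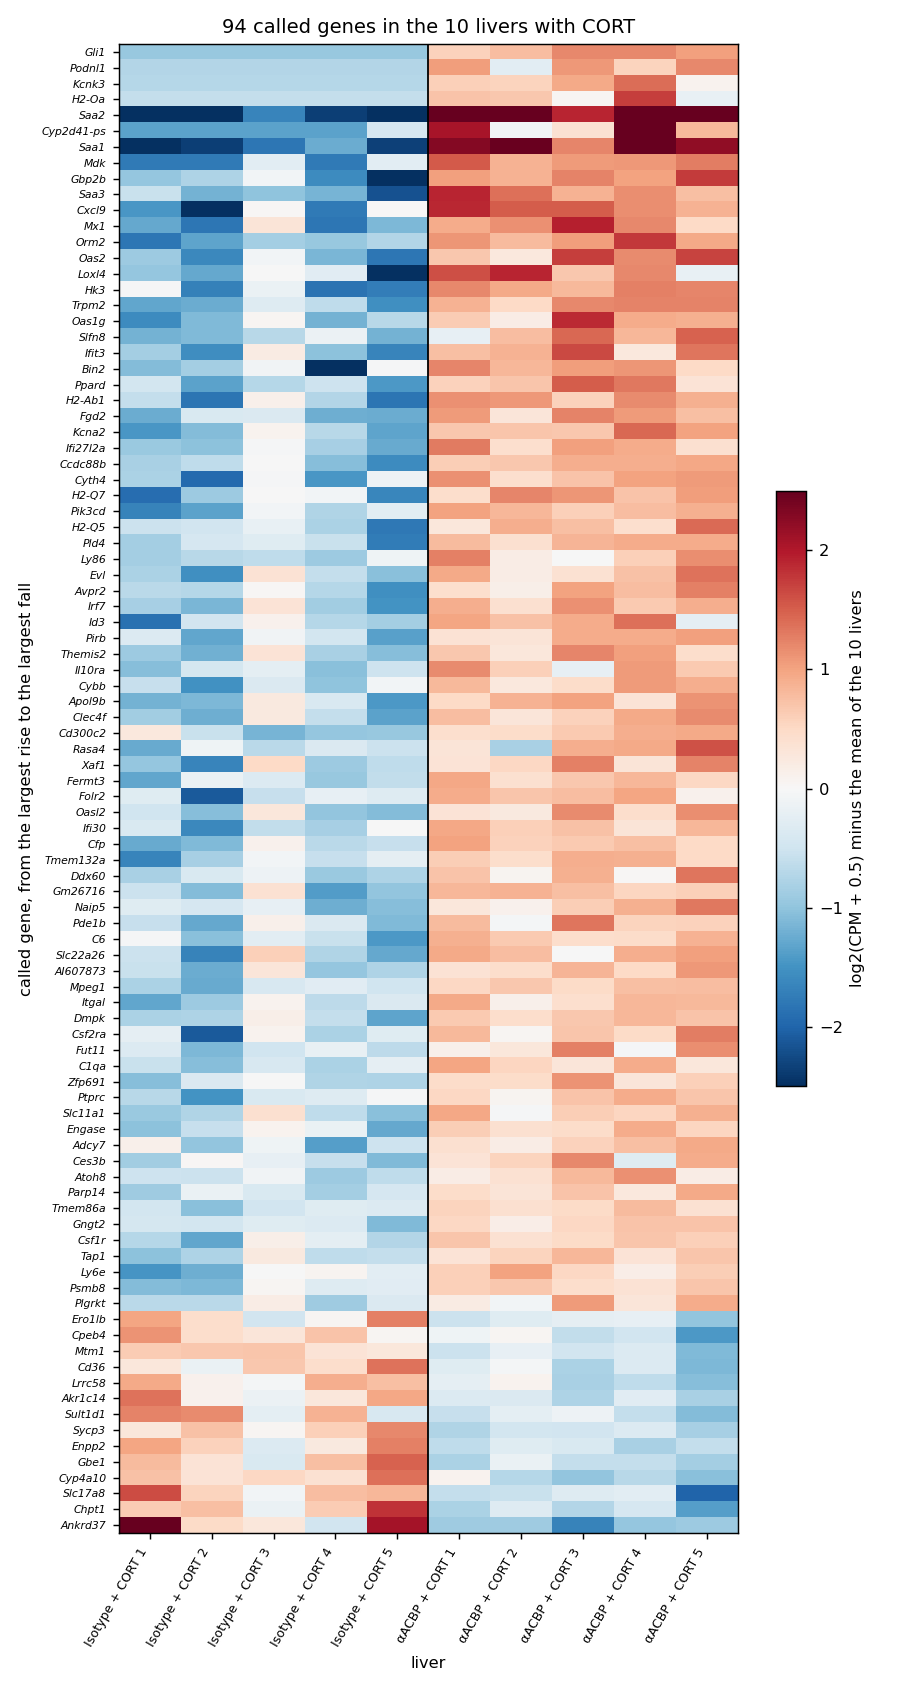
Genes called with αACBP under CORT, 94 of the 96 (rows, from the largest rise to the largest fall) in the 10 livers (columns), coloured by log2(CPM + 0.5) minus the mean of the 10 livers. The 80 genes shown that rose are mostly blue with isotype and red with αACBP, Isotype + CORT replicate 3 is the palest of its group, and the 14 that fell form the block at the bottom.

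Among the largest rises were those of acute-phase proteins, which hepatocytes secrete in inflammation. Of 31 genes of this list that were tested, 5 were called higher and 0 lower (16.1% against 0.504% of all genes called higher), and the median of the list was a log2 fold change of 0.22. The change was thus carried by a few members, and 10 of the 31 had a negative fold change. The called members were Saa1, Saa2 and Saa3, which encode serum amyloid A apolipoproteins, Orm2, which encodes an orosomucoid, and Ly6e. Unlike the others, Ly6e encodes a membrane protein and not a secreted one, and interferon also induces it. Promoters of the called members are shown first, because the 4 of these genes with a window in the RefSeq promoter table all hold the letters of a C/EBP site (TTGCNNAA, searched on both strands), the motif of the family of factors that drives acute-phase genes. Shown are bases -200 to -1 before the gene start, 5′ to 3′ on the strand of the gene, with build GRCm38.p6 coordinates, and capitals mark the motif.
Saa1: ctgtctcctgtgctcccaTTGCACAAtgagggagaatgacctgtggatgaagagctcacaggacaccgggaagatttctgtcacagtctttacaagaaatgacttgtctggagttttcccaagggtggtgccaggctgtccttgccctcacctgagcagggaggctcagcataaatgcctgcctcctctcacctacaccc
Saa2: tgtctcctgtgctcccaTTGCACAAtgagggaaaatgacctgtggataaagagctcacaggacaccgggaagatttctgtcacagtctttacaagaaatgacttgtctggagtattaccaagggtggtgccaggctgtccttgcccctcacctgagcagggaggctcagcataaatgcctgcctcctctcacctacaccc
Saa3: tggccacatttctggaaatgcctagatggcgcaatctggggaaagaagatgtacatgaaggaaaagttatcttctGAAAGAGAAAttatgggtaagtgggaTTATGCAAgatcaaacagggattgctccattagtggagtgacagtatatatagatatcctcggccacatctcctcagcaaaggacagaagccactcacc
Orm2: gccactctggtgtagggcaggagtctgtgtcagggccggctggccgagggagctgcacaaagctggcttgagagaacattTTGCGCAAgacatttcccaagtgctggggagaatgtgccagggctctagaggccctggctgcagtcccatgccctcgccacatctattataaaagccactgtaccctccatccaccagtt
These stretches lie at chr7:46742981-46743180 on the minus strand for Saa1, at chr7:46751633-46751832 on the plus strand for Saa2, at chr7:46715677-46715876 on the minus strand for Saa3 and at chr4:63362249-63362448 on the plus strand for Orm2. In Saa3 the first run of capitals is not a C/EBP site but an interferon motif (GAAA repeated after 2 further bases). Of 27025 genes with a promoter window of 300 bases, 12.2% hold the C/EBP letters, so that a match is common. Among the 59 genes called higher that have a window, the share was 16.9%. The Saa1 and Saa2 stretches are nearly the same sequence, so that their matches are not independent. The letters of an NF-κB site and of a Y box were also searched, and each was found in 0 of the 4 genes. Of all genes, 1.89% and 4.7% hold them, so that 0 of 4 says little. A match describes the letters and not binding.

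Saa2 was at 22.9, 4.5, 41, 25.1 and 20.4 CPM in the Isotype + CORT livers and at 1130, 817, 491, 1240 and 996 CPM in the αACBP + CORT livers. Every liver with the antibody was above every liver without it, by a log2 fold change of 5.36 (SE 0.91, adjusted p = 0.00871). Saa1 was at 25.2, 38.7, 57.1, 84.4 and 39.4 CPM with isotype and at 990, 1110, 467, 1120 and 938 CPM with αACBP, a log2 fold change of 4.24 (SE 0.74, adjusted p = 0.00949). Saa1 and Saa2 lie side by side and are close copies, with 10.7% of the sequence words of 100 bases in Saa2 also found in Saa1, so that a share of the pairs cannot be assigned to either with certainty. Saa3, which is made by macrophages as well, rose from a mean of 5.34 ± 2.08 CPM (SD, n = 5) to 30.5 ± 10.6 CPM (SD, n = 5). Its log2 fold change was 2.51 (adjusted p = 0.0165), and the call was lost without Isotype + CORT replicate 2 or 4 (highest adjusted p = 0.0518). Orm2 was at 37.5, 52.9, 73.1, 68.3 and 79.1 CPM with isotype and at 284, 228, 275, 453 and 255 CPM with αACBP. These groups did not overlap, with a log2 fold change of 2.27 (SE 0.48, adjusted p = 0.0279), although 8 of the 10 single-liver omissions moved the adjusted p above 0.05, up to 0.0798. Ly6e rose by a log2 fold change of 1.06 (adjusted p = 0.0235), a call lost in 5 of 10 omissions. Hemopexin (Hpx), which binds free haem and is more abundant, was at 2275 CPM and 4685 CPM on average and missed the limit (log2 fold change 1.04, adjusted p = 0.0628). Haptoglobin (Hp), another abundant member, had a log2 fold change of 0.22 (adjusted p = 0.841). For the list of IL-6, STAT3 and C/EBP signalling genes, which act upstream of acute-phase genes, 0 of 31 members were called and 2 were higher at an unadjusted p of 0.05 or less. The share of all genes that passed this p was not counted.

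**Figure D2:**
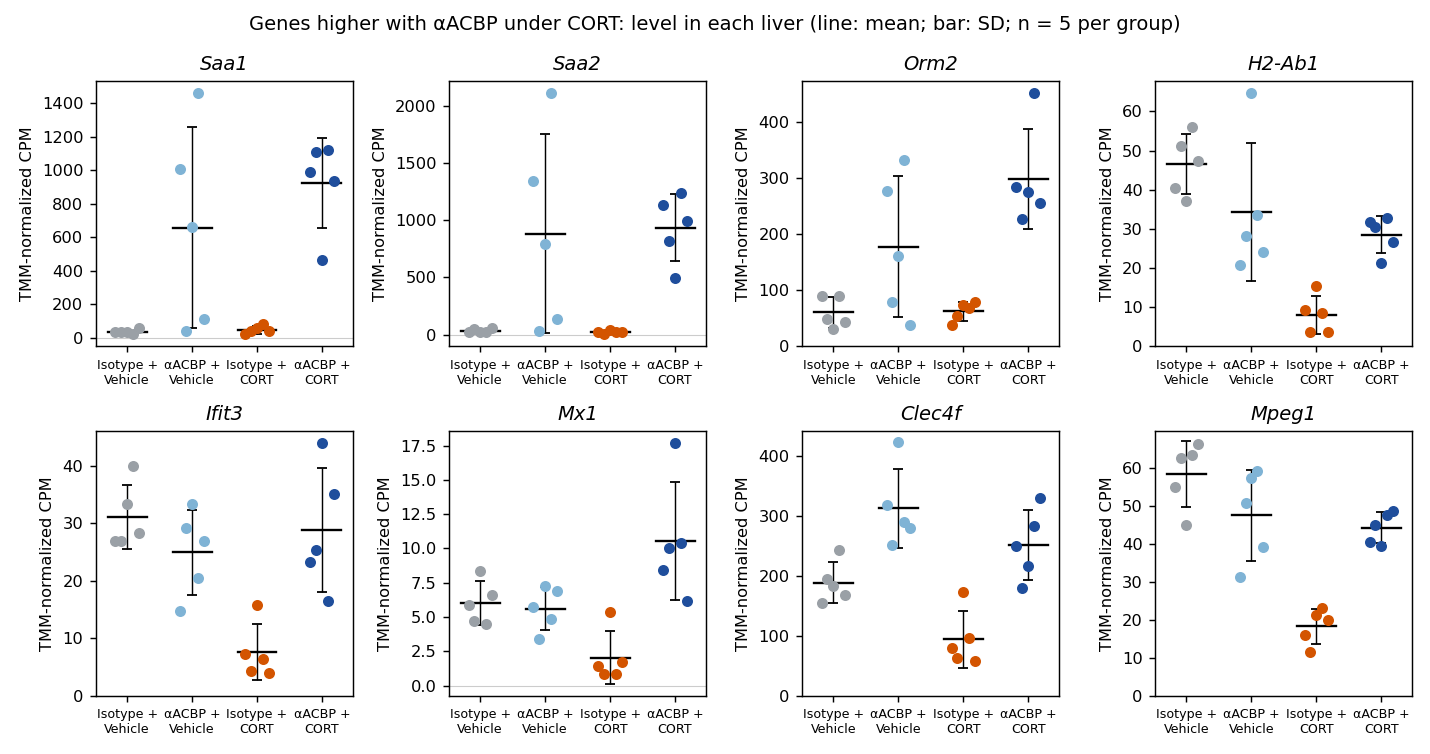
Level in each liver (TMM-normalized CPM, linear axes) of 8 genes that rose with αACBP under CORT, in the 4 groups of 5 livers; lines are means and bars are SD. In Saa1, Saa2, Orm2, H2-Ab1, Ifit3, Mx1, Clec4f and Mpeg1 the αACBP + CORT livers all lie above the Isotype + CORT livers, and Saa1 and Saa2 are also high in some αACBP + Vehicle livers.

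Interferon-stimulated genes rose as a group in sign and in part by the test. All 40 tested members of the type I interferon list had a positive fold change, with a median of 1.04 on the log2 scale against 0.01 for all genes, and 10 of the 40 were called higher (25% against 0.504% of all genes). These 10 were Mx1, Ddx60, Ifit3, Ifi27l2a, Irf7, Xaf1 and Parp14, with Oas1g, Oas2 and Oasl2 of the oligoadenylate synthetase family. The interferon-stimulated response element has GAAA, any 2 bases and GAAA as its core, and 3 of the 6 called members that have a promoter window hold it on either strand, against 3.99% of all genes. Bases -200 to -1 of these 3 are given with the core in capitals, on the strand of the gene (GRCm38.p6).
Ifit3: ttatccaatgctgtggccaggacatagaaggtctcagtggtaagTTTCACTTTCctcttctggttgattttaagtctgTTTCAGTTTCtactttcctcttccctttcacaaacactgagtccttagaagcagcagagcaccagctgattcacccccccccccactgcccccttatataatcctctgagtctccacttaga
Oas1g: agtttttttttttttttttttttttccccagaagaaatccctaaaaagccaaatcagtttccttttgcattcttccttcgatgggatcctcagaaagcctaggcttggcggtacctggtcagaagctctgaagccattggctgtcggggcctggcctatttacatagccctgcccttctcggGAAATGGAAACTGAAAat
Ddx60: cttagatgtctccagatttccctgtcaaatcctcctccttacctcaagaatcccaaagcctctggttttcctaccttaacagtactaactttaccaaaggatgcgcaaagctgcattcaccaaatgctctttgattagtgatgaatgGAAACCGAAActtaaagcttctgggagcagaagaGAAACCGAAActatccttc
The Ifit3 stretch lies at chr19:34583329-34583528 on the plus strand, that of Oas1g at chr5:120887614-120887813 on the minus strand and that of Ddx60 at chr8:61927887-61928086 on the plus strand. Each of them holds the core at 2 places, which in Oas1g overlap. Among the 59 genes called higher that have a window, the share with the core was 18.6%, and among the 11 called lower it was 9.09%. As with the C/EBP letters, a match is not evidence of binding.

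Oas2, an enzyme that makes the signal for RNase L, was at 11.1, 6.61, 20.4, 9.39 and 5.74 CPM in the Isotype + CORT livers and at 34.1, 25.6, 71.9, 48.6 and 70.1 CPM with αACBP. Its log2 fold change was 2.23 (SE 0.33, adjusted p = 0.00173). Ifit3, which binds foreign RNA together with its relatives, was at 7.32, 4.3, 15.8, 6.45 and 4 CPM with isotype and at 23.2, 25.4, 44, 16.5 and 35.1 CPM with αACBP, and the log2 fold change was 1.93 (SE 0.32, adjusted p = 0.00275). In both genes Isotype + CORT replicate 3 was the highest of its group and still below all livers with the antibody. Mx1, the gene of an interferon-induced GTPase, rose from a mean of 2.04 ± 1.91 CPM (SD, n = 5) to 10.6 ± 4.35 CPM (SD, n = 5), with a log2 fold change of 2.36 (adjusted p = 0.0066). Irf7, the factor that amplifies interferon production, rose from 32.9 ± 18.8 to 92.2 ± 17.6 CPM (SD, n = 5 each; log2 fold change 1.49, adjusted p = 0.00275). The lowest log2 fold change of a member was 0.05, so that the list moved by unequal amounts. Bst2, which tethers virions, and the signalling factor Stat2 are among its abundant members. Bst2 had a log2 fold change of 0.77 (adjusted p = 0.0242), under the fold limit, and Stat2 one of 0.48 (adjusted p = 0.295). With the CORT livers fitted alone, 4 members of the list were called, and without Isotype + CORT replicate 3, the count was 15. Mx1 (adjusted p = 0.0571) and Irf7 (adjusted p = 0.0505) were not called with the CORT livers alone. Ifit3 and Oas1g share sequence words with a near copy (16.7% with Ifit3b and 31.8% with Oas1a), so that pairs in those stretches could fall to either gene.

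The guanylate-binding and immunity-related GTPases, which interferon-γ induces and which attack intracellular microbes, had a median log2 fold change of 0.83 over 21 tested members, 19 of them positive. Of these, 1 was called higher (4.76% against 0.504%), Gbp2b, which lay at 0.957, 1.15, 2.19, 0.456 and 0 CPM with isotype and at 5.24, 4.64, 6.14, 5.2 and 9.02 CPM with αACBP (log2 fold change 2.64, SE 0.61, adjusted p = 0.0306). The groups were separate, but the gene is expressed at a low level, and the call was lost in 6 of 10 omissions. Igtp and Irgm1, more abundant members, had log2 fold changes of 0.70 (adjusted p = 0.177) and 0.50 (adjusted p = 0.109). Cxcl9, a chemokine that interferon-γ induces and that attracts T cells, was the only called member of the 30 chemokine and receptor genes tested (3.33% against 0.504%). Its levels were 2.19, 0.0501, 7.05, 1.69 and 7.02 CPM with isotype and 26.8, 20.7, 20.8, 16.1 and 13 CPM with αACBP, with a log2 fold change of 2.43 (SE 0.57, adjusted p = 0.0453). The Cxcl9 call did not hold in 7 of 10 omissions, with adjusted p up to 0.12.

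MHC class II genes, whose products present extracellular antigen, all had positive fold changes. Over the 14 tested members the median log2 fold change was 1.69 and 3 were called higher (21.4% against 0.504% of all genes), namely H2-Ab1, a chain of the class II molecule itself, Ifi30, a thiol reductase that prepares antigen in lysosomes, and H2-Oa, a chain of the regulator H2-O. H2-Ab1 was at 9.16, 3.6, 15.4, 8.34 and 3.61 CPM in the Isotype + CORT livers and at 31.6, 30.4, 21.2, 32.8 and 26.5 CPM in the αACBP + CORT livers (log2 fold change 1.83, SE 0.34, adjusted p = 0.0072). Ifi30 was at 11.7, 4.75, 9.88, 8.47 and 15.3 CPM with isotype and at 30.8, 23.5, 26.2, 19.6 and 27.9 CPM with αACBP (log2 fold change 1.36, SE 0.24, adjusted p = 0.00534). For both genes the groups were separate, and both stayed called with each of the 10 livers left out and with the CORT livers alone. H2-Aa, the partner chain of H2-Ab1, had separate groups as well, from 2.06 to 14.7 CPM with isotype and from 18 to 38.5 CPM with αACBP, but its log2 fold change of 1.73 missed the limit (adjusted p = 0.059). Cd74, the chaperone of class II molecules, had a log2 fold change of 1.69 (adjusted p = 0.0922). H2-Oa had 0 counts in all 5 Isotype + CORT livers and between 3 and 34 counts with αACBP. Its mean with αACBP was at least 3.81-fold above a floor of 3 counts per library. However, 34 of its 64 counts came from 1 liver, and the lowest liver was at that floor. The H2-Oa call was lost in 9 of 10 omissions, and the gene was not tested with the CORT livers alone. Exons of BC051537 lie opposite 25.9% of its exon bases. The summed level of the class II list ranged from 29.7 to 114 CPM with isotype and from 141 to 246 CPM with αACBP.

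Among 25 tested genes of MHC class I and antigen processing, 3 were called higher (12% against 0.504%) and the median log2 fold change was 0.52. H2-Q7, a non-classical class I gene, was at 12.5, 25.6, 47.9, 46.1 and 15.3 CPM with isotype and at 65.8, 113, 104, 79 and 99.6 CPM with αACBP (log2 fold change 1.64, SE 0.28, adjusted p = 0.00476). Of its words of 100 bases, 9.8% are shared with other genes, among them H2-Q10, H2-Q6 and H2-Q5, so that pairs there could fall to another gene. Tap1, the peptide transporter into the endoplasmic reticulum, rose by a log2 fold change of 1.06 (adjusted p = 0.0072), and Psmb8, a subunit of the immunoproteasome, by 1.05 (adjusted p = 0.0155). For all 3 genes every αACBP liver lay above every isotype liver, and the calls of Tap1 and Psmb8 were each lost in 2 of 10 omissions. With the CORT livers fitted alone, all 3 lost their calls (adjusted p from 0.0571 to 0.0587). The classical class I genes were more abundant, with smaller fold changes. H2-D1 had a log2 fold change of 0.74 (adjusted p = 0.0447), below the fold limit, and H2-K1 one of 0.43 (adjusted p = 0.219).

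Markers of Kupffer cells and other macrophages had a median log2 fold change of 0.96 over 33 tested members, 30 of them positive, and 5 were called higher (15.2% against 0.504% of all genes). Fewer cells of a type and less RNA per cell cannot be told apart in bulk liver RNA. Clec4f, a lectin that marks Kupffer cells, was at 79.7, 62.8, 174, 96.9 and 57.3 CPM with isotype and at 251, 180, 217, 284 and 331 CPM with αACBP (log2 fold change 1.42, SE 0.24, adjusted p = 0.00275). C1qa, a subunit of complement C1q that macrophages make, was at 34.8, 24.4, 38.7, 29.4 and 43.8 CPM with isotype and at 103, 74.9, 64, 98.7 and 62.8 CPM with αACBP (log2 fold change 1.24, SE 0.25, adjusted p = 0.0116). Both genes had separate groups, and Clec4f in Isotype + CORT replicate 3 came close to the lowest liver with the antibody. Csf1r, the receptor for the macrophage growth factor, Folr2, a folate receptor, and Id3, a regulator needed by Kupffer cells, were the other called members, with log2 fold changes of 1.07, 1.37 and 1.49. The call of Csf1r was lost without Isotype + CORT replicate 2 and that of Folr2 in 7 of 10 omissions, and 61.2% of its exon bases lie opposite an exon of the predicted gene Gm10602. Since the strand setting of the counting is not given in the sources used here, pairs from such overlaps cannot be assigned to a strand. In the list of complement and coagulation genes, 2 of 49 were called higher (4.08% against 0.504%), C1qa, which the macrophage list holds as well, and C6, a component of the membrane attack complex with a log2 fold change of 1.31 (adjusted p = 0.0072). The summed level of the macrophage list was 590 to 1030 CPM with isotype and 1290 to 1700 CPM with αACBP.

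The genes that follow were picked from the 62 called genes in no list, after their values had been seen, most of them for a known role in leukocytes or phagocytes. Mpeg1, the pore-forming protein of macrophages, was at 16, 11.5, 21.3, 23.1 and 19.9 CPM with isotype and at 40.5, 45, 39.6, 47.8 and 48.6 CPM with αACBP (log2 fold change 1.27, SE 0.19, adjusted p = 0.00165). Trpm2, a calcium channel opened by oxidative stress, had the lowest adjusted p of all the genes tested (0.000739), at 4.04, 4.25, 8.44, 6.71 and 3.35 CPM with isotype and 20, 15.3, 25.2, 25.8 and 25.9 CPM with αACBP. Ptprc, which encodes the leukocyte antigen CD45, rose by a log2 fold change of 1.18 (adjusted p = 0.0173). Cybb, a subunit of the phagocyte NADPH oxidase, rose by 1.45 (adjusted p = 0.0486) and Cfp, which stabilizes the complement convertase, by 1.34 (adjusted p = 0.0072). Hk3, a hexokinase of myeloid cells, rose by 2.16 (adjusted p = 0.00275), and Pik3cd, a leukocyte PI3-kinase subunit, by 1.60 (adjusted p = 0.00813). Slc11a1, a metal transporter of phagosomes, and Itgal, a leukocyte integrin, rose by 1.16 and 1.25. Single omissions lost the calls of Slc11a1 in 8 of 10 cases, of Itgal and Cybb in 7 and of Ptprc in 4. With the CORT livers fitted alone, Mpeg1, Trpm2 and Cfp stayed called, whereas Ptprc, Cybb, Hk3, Pik3cd, Slc11a1 and Itgal did not.

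Dendritic cell and neutrophil markers had a median log2 fold change of 0.745 over 16 tested members, 12 of them positive. None of the 16 was called by edgeR's test or by DESeq2's Wald test, and at an unadjusted p of 0.05 or less 6 were higher and 0 lower. No share of all genes was counted for this p, so this tally and those of the next lists have no background. The summed level of this list was 161 to 201 CPM with isotype and 246 to 290 CPM with αACBP, ranges that did not overlap. This sum includes Bst2, which the interferon list holds as well. How often the summed levels of a list were separate was not counted. The list has 25 genes, of which Ly6g, Cxcr2, Mmp8, Camp, Ngp, Ltf, Retnlg, Elane and Mpo were not tested, so it describes neutrophils poorly. Of 27 tested T and NK cell markers 24 had a positive fold change, with a median of 1.07 on the log2 scale. The summed T and NK list was at 20.7 to 48.2 CPM and 43.4 to 60.9 CPM, overlapping ranges, and the T cell receptor subunit Cd3e was at 0.51 and 0.65 CPM on average. Among B and plasma cell markers 0 of 25 were called and 5 were higher at an unadjusted p of 0.05 or less. Ighm and Igkc, the immunoglobulin chains, had log2 fold changes of 0.76 (adjusted p = 0.486) and 0.44 (adjusted p = 0.795). For sinusoidal endothelial cells 0 of 30 markers were called (median log2 fold change 0.10), for stellate cells and matrix 0 of 36 (0.13) and for cholangiocytes 0 of 15 (0.12). At an unadjusted p of 0.05 or less these lists had 2, 3 and 1 members higher and 1, 2 and 1 lower. Of 28 hepatocyte markers 0 were called, and at an unadjusted p of 0.05 or less 2 were higher and 5 lower.

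**Figure D3:**
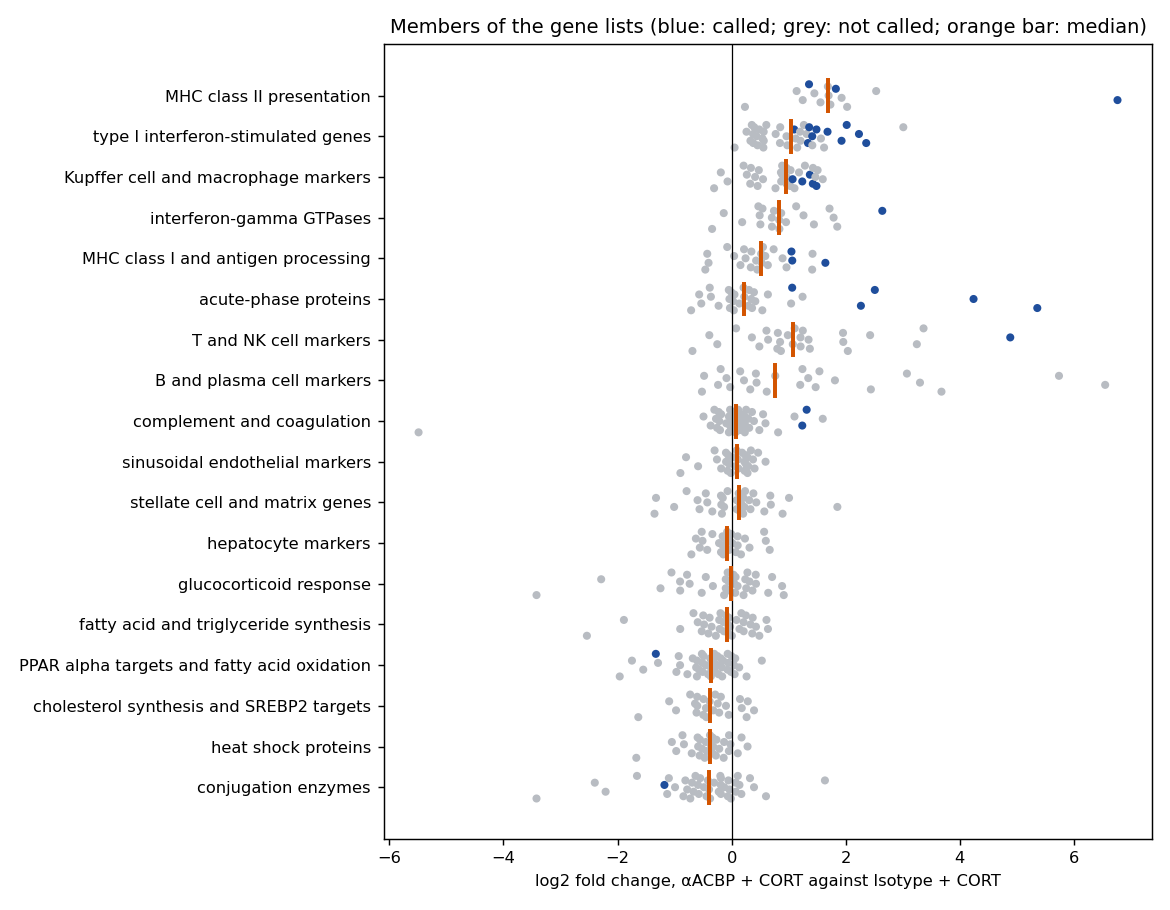
Log2 fold change of αACBP + CORT against Isotype + CORT for the tested members of 18 gene lists (points; blue if called, grey if not) with the median of each list (orange bar). The class II, type I interferon and macrophage lists have medians of 1.69, 1.04 and 0.96, the hepatocyte and glucocorticoid response lists have medians of -0.09 and -0.003, and the lists of PPARα targets, cholesterol synthesis, heat shock and conjugation have negative medians.

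Several genes had no counts with isotype or took part in signalling outside the immune lists. Gli1, the transcription factor that reports Hedgehog signalling, had 0 counts in all 5 Isotype + CORT livers and between 14 and 30 counts in each αACBP + CORT liver (0.94, 1.16, 1.72, 1.72 and 1.46 CPM). Against the floor of 3 counts per library the Gli1 mean with αACBP was at least 6.82-fold higher (adjusted p = 0.0055). Podnl1, a small matrix proteoglycan gene, and Kcnk3, a potassium channel gene, were likewise at 0 counts with isotype. Their means with αACBP were at least 4.66-fold and at least 4.46-fold above the floor, with 3 to 26 and 7 to 28 counts per liver. The Kcnk3 call was lost in 9 of 10 omissions, whereas Gli1 and Podnl1 stayed called in all 10. With the CORT livers fitted alone, Gli1 missed the limit (adjusted p = 0.0587), and Podnl1 and Kcnk3 were not tested. Ppard, the nuclear receptor PPARδ, was at 12, 6.31, 10, 11.5 and 5.86 CPM with isotype and at 24.9, 27, 48.3, 42.2 and 21.1 CPM with αACBP (log2 fold change 1.84, SE 0.29, adjusted p = 0.00275). Id3 was at 29.3, 77.4, 116, 65.3 and 59.8 CPM with isotype and 215, 179, 207, 282 and 91.9 CPM with αACBP, groups that overlapped through αACBP + CORT replicate 5. Loxl4, a lysyl oxidase that crosslinks matrix, rose by a log2 fold change of 2.22 (adjusted p = 0.0369), and Mdk, the growth factor midkine, by 3.17 (adjusted p = 0.0403). Those last calls were lost in 7 and 8 of 10 omissions.

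The genes that fell were fewer, and several of them encode metabolic enzymes and transporters. Chpt1, which makes phosphatidylcholine from choline, was at 267, 290, 154, 267 and 605 CPM with isotype and at 99.6, 139, 104, 129 and 66.2 CPM with αACBP, a log2 fold change of -1.56 (SE 0.28, adjusted p = 0.00713). Every αACBP liver lay below every isotype liver. Sycp3, a meiotic gene, fell by 1.19 on the log2 scale, and 48.5% of its exon bases lie opposite Chpt1 exons, so that its counts may hold Chpt1 pairs. Cyp4a10, an ω-hydroxylase of fatty acids and a PPARα target, was at 1250, 948, 1070, 972 and 1950 CPM with isotype and at 803, 458, 381, 463 and 363 CPM with αACBP (log2 fold change -1.33, SE 0.29, adjusted p = 0.023). Its groups were separate, 6 of 10 omissions lost the call (highest adjusted p = 0.0823), and 13.6% of its words are shared with Cyp4a31 or Cyp4a32. Cd36, the fatty acid translocase, was at 99.6, 72.4, 130, 110 and 209 CPM with isotype and at 66.3, 79.2, 46.7, 64.5 and 37.3 CPM with αACBP. Its log2 fold change was -1.08 (SE 0.23, adjusted p = 0.0173), and the call did not hold without Isotype + CORT replicate 5, αACBP + CORT replicate 3 or αACBP + CORT replicate 5.

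Gbe1, the glycogen branching enzyme, fell by 1.32 on the log2 scale (adjusted p = 0.00771). It stayed called in all 10 omissions but not with the CORT livers fitted alone (adjusted p = 0.0535). Akr1c14, a steroid-reducing enzyme, was at 528, 223, 187, 251 and 406 CPM with isotype and at 163, 160, 120, 169 and 117 CPM with αACBP (log2 fold change -1.13, SE 0.23, adjusted p = 0.00948), and lost its call without Isotype + CORT replicate 1. Sult1d1, a sulfotransferase, fell by 1.18 on the log2 scale (adjusted p = 0.014) and Enpp2, which makes lysophosphatidic acid, by 1.20 (adjusted p = 0.00713), with the call lost in 2 omissions and in 1. Ankrd37, a target of hypoxia signalling, had the largest fall, from 23.4, 3.75, 3.2, 1.69 and 12.5 CPM with isotype to 1.14, 1.16, 0.459, 1.06 and 1.13 CPM with αACBP (log2 fold change -3.16, SE 0.64, adjusted p = 0.0116). It lost the call without Isotype + CORT replicate 1, and 81.4% of its exon bases lie opposite exons of Ufsp2 or Lrp2bp. Further called falls were Mtm1, a phosphoinositide phosphatase, Slc17a8, a glutamate transporter, Cpeb4, a regulator of mRNA translation, Lrrc58 and Ero1lb, an oxidase of the endoplasmic reticulum, with log2 fold changes from -1.54 to -1.01. In this order, their calls were lost in 1, 6, 5, 4 and 8 of 10 omissions. Of the genes that fell, only Chpt1, Cyp4a10 and Sycp3 kept their calls with the CORT livers fitted alone. In that fit the adjusted p was 0.0571 for Enpp2, 0.0685 for Akr1c14, 0.092 for Cd36 and 0.125 for Sult1d1.

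**Figure D4:**
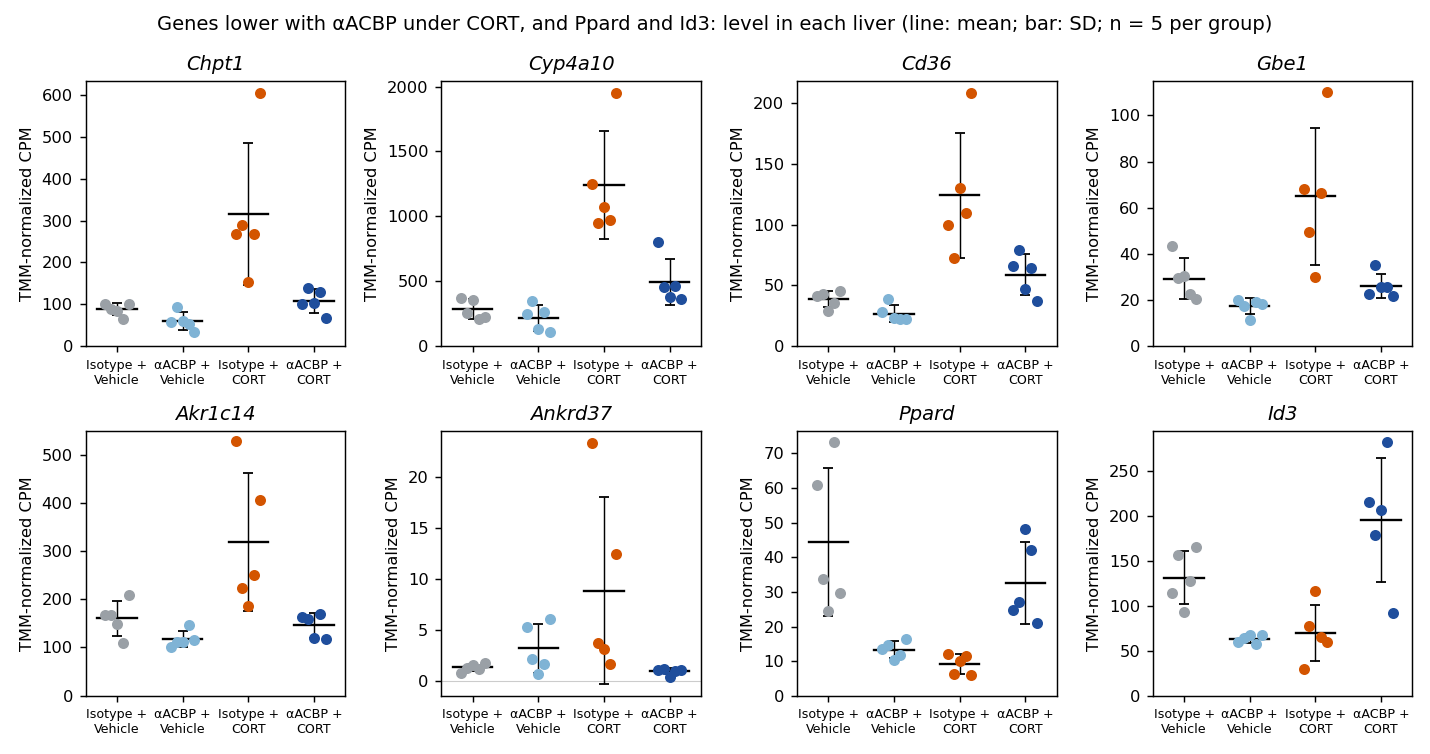
Level in each liver (TMM-normalized CPM, linear axes) of 6 genes that fell with αACBP under CORT and of Ppard and Id3, in the 4 groups of 5 livers; lines are means and bars are SD. Chpt1, Cyp4a10, Akr1c14 and Ankrd37 lie lower in every αACBP + CORT liver than in any Isotype + CORT liver, and Ppard and Id3 are higher with αACBP under CORT but lower with αACBP under vehicle.

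The metabolic lists held few called genes. For PPARα targets and fatty acid oxidation, 40 of 46 tested members had negative fold changes, whereas 51.0% of all genes tested had positive ones. The median of this list was -0.36 on the log2 scale, and 1 member was called lower, beside 0.0933% of all genes tested. The unadjusted p was at most 0.05 for 14 lower and 0 higher members. The share of all genes that passed this p was not counted, so such tallies stand without a background. Cyp4a14, a relative of Cyp4a10, had a log2 fold change of -1.29 (adjusted p = 0.221). Fatty acid and triglyceride synthesis had 0 of 36 called. Its central enzyme Fasn ranged from 185 to 982 CPM with isotype and from 360 to 1150 CPM with αACBP, a log2 fold change of 0.004 (SE 0.43, adjusted p = 0.998), and the desaturase Scd1 had one of -0.14 (adjusted p = 0.965). Of 25 cholesterol synthesis genes 0 were called, with 20 negative and a median of -0.39. Of 43 conjugation enzymes Sult1d1 alone was called (lower, beside 0.0933% of all genes), with 34 negative and a median of -0.40. Heat shock proteins had 0 of 30 called and 27 negative. For the 34 genes of the glucocorticoid response 0 were called, 17 were positive and 17 negative, and the median log2 fold change was -0.003. At an unadjusted p of 0.05 or less 7 of them were lower and 1 was higher, and DESeq2's Wald test called 1. The lowest values were those of Sult1e1, the oestrogen sulfotransferase, at a log2 fold change of -3.42 (SE 1.06, adjusted p = 0.152), and of Gadd45b, a stress response gene, at -2.29 (SE 0.77, adjusted p = 0.191). Tat, tyrosine aminotransferase, had a log2 fold change of 0.31 (adjusted p = 0.732), and Hsd11b1, which regenerates active glucocorticoid, one of -0.45 (adjusted p = 0.262). In glucose handling 0 of 38 were called and in the circadian clock 0 of 22, with 2 clock genes higher and 2 lower at an unadjusted p of 0.05 or less.

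The αACBP + Vehicle and Isotype + Vehicle livers share no animal with the comparison above. Without CORT, the antibody changed 209 genes (1.3%), and without αACBP + Vehicle replicate 5 the number was 113. The number moved by over 1.5 times in 6 of 10 single omissions of a vehicle liver, from 87 without Isotype + Vehicle replicate 5 to 343 without Isotype + Vehicle replicate 4. Both comparisons called 8 genes, which are 8.33% of those called with CORT and 3.83% of those called without it. Saa1, Saa2, Saa3, Kcna2 and Pde1b were higher and Lrrc58 was lower in both, and Ppard and Id3 went opposite ways. With CORT, the call of Pde1b was lost in 8 of 10 omissions (highest adjusted p = 0.142) and that of Lrrc58 in 4. Exons of Ppp1r1a lie opposite 35.4% of the exon bases of Pde1b. Without CORT, Saa2 was at 22.2, 44.6, 25.6, 19.8 and 53.3 CPM with isotype and at 1340, 31.2, 788, 2110 and 137 CPM with αACBP, so that the groups overlapped, and the log2 fold change was 4.73 (adjusted p = 0.00891), or 5.00 without αACBP + Vehicle replicate 5 (adjusted p = 0.0114). The rise of Saa1 was 4.10 without CORT and 4.24 with it, and the interaction of antibody and CORT for Saa1 was 0.14 on the log2 scale (SE 0.92, adjusted p = 0.986), or -0.11 without that liver (adjusted p = 0.984). Of the 8 shared genes 5 stayed called without CORT when αACBP + Vehicle replicate 5 was omitted. Kcna2, a potassium channel gene, Pde1b, a phosphodiesterase gene, and Id3 lost that call (adjusted p = 0.0712, 0.0902 and 0.0635). The call of Saa3 without CORT was kept there (adjusted p = 0.0189) and lost in 4 of 20 single omissions. Of the 81 genes that rose with CORT, 60 had a positive fold change without it (48.8% of all genes tested did), with a median of 0.28, and of the 15 that fell 13 had a negative one, with a median of -0.48. Without αACBP + Vehicle replicate 5 these were 57 genes with a median of 0.25 and 13 genes with a median of -0.45.

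A test of the difference itself, the interaction, called 23 of all genes (0.143%), 9 of them among the 96. Without αACBP + Vehicle replicate 5 it called 11, with 4 among the 96. The count moved by over 1.5 times in 18 of 20 single omissions, from 6 without αACBP + CORT replicate 3 to 101 without αACBP + CORT replicate 5. Ppard had a log2 fold change of 1.84 with CORT and -1.73 without it, with an interaction of 3.57 (SE 0.41, adjusted p = 4.58e-05), and its levels without CORT were 61, 33.8, 24.4, 73.2 and 29.6 CPM with isotype and 13.4, 14.8, 10.3, 11.8 and 16.3 CPM with αACBP. Id3 had a log2 fold change of 1.49 with CORT and -1.05 without it (interaction 2.54, adjusted p = 0.00281), and without αACBP + Vehicle replicate 5 the latter was -1.09 and not called. The interactions of Ppard, Id3 and Mpeg1 were called with each of the 20 livers left out. Those of Ifit3, H2-Ab1, Ifi27l2a, Gli1 and Ankrd37 were lost without αACBP + Vehicle replicate 5, with adjusted p between 0.0574 and 0.0803, while Loxl4 was kept there (adjusted p = 0.0267). For the type I interferon, class II and macrophage lists the median log2 fold changes without CORT were -0.01, -0.21 and -0.24, beside 1.04, 1.69 and 0.96 with CORT, and without αACBP + Vehicle replicate 5 they were -0.01, -0.23 and -0.20. The interaction was called for 9 of the 96 genes only, and for the others no difference between the effects with and without CORT was shown.

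**Figure D5:**
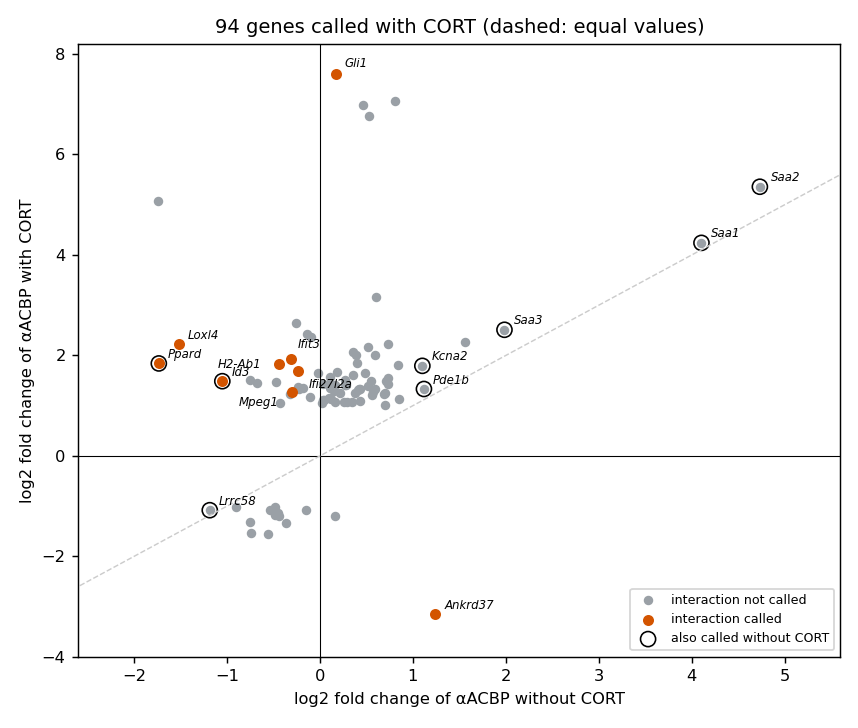
Log2 fold change of αACBP with CORT (vertical) against that without CORT (horizontal) for 94 of the 96 genes called with CORT; orange points passed the interaction test, circles were also called without CORT, and the dashed line marks equal values. Saa1, Saa2 and Saa3 lie close to the dashed line, Ppard and Id3 lie in the upper left with opposite signs, and 60 of the 81 genes that rose were above 0 without CORT, with a median of 0.28.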

How the data were processed

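Liver RNA was sequenced by the authors, who aligned the read pairs with HISAT2, assigned them to genes by HTSeq-count (union mode, pairs on more than 1 feature included) and deposited raw counts per gene and liver that are not normalized. The study's methods name GRCm39 and the submitters' processing notes mm10. The count table holds no coordinates, so which of these builds the counts rest on could not be told from it, and the annotation release and strand setting are not given in the sources used here. Lines of the table that name no gene were left out (pairs on no feature were 42.3% to 45.2% of all). Total counts on genes were 14934926 to 20299999 per liver over the series, at which 3 counts are at most 0.201 CPM before TMM, a floor that covers counting error only. All 20 columns were mapped to livers by their names.

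Counts were analysed in R 4.3.3 with edgeR 4.0.16 (TMM, edgeR's filter on low counts, robust quasi-likelihood fit, 1 model of the 4 groups without covariates). The contrasts were αACBP with isotype under CORT, the same without CORT, and their interaction. Calls required a log2 fold change of 1 or more in size and a p, adjusted after Benjamini and Hochberg, not above 0.05. Counts of list members at an unadjusted p of 0.05 or less carry no fold limit. The matching share of all genes was not counted for them. CPM are TMM-normalized, and SE are those implied by the test. Livers of a group are labelled as separate biological replicates. Same-group livers differed by more than counting noise (chi-square per degree of freedom of 12 or more in 40 pairs). The gene lists, the genes compared and the rules for naming them (called genes other than pseudogenes and predicted genes, and called or most abundant members of lists) were chosen with earlier results of these data known. Genes named outside that rule, such as H2-Aa, Cd3e, Cyp4a14 and Hpx, were taken for their place in a list, after their values had been seen. Alternatives were DESeq2 1.42.0 (size factors, and the Wald test), other filters and limits, library sizes without the 20 most abundant genes, only the groups compared, a replicate block and each liver left out. The vehicle liver that stood apart was also left out after seeing the data. The scripts were tested on simulated data. Results of some genes are not reported here. Promoter windows came from the RefSeq table (GRCm38.p6), and 70 of the 96 called genes had one. Overlaps and words of 100 bases shared between genes came from GENCODE M39 (GRCm39), in which all 96 called genes matched by identifier. Of these, 24 had over 10% of their exon bases opposite an exon of another gene, and 8 shared over 10% of their words with another gene. Only some of them are named above.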

Additional observations from a re-analysis of the deposited data

Results flagged for a closer look

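In the per-liver levels of 37 genes in the 2 CORT groups, 9 values lay far from the other 4 of their group by Dixon's criterion, which chance meets in about 1 of 20 groups. Isotype + CORT replicate 3 was high for Ifit3 (15.8 CPM), Mx1 (5.39 CPM), Irf7 (65.6 CPM), Ifi27l2a (9.94 CPM) and Tap1 (42.6 CPM), genes that share a response to interferon, and without it 191 genes were called. With αACBP, replicate 3 was low for Saa1 (467 CPM) and for Ankrd37 (0.459 CPM), replicate 4 was high for Orm2 (453 CPM) and replicate 1 was high for Cyp4a10 (803 CPM).

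The effect of αACBP differed between mice with and without CORT, by the interaction test, for 9 of the 96 genes called with CORT (23 of all genes tested). The difference with CORT minus without it was 7.43 on the log2 scale for Gli1, a fitted value against a group with no counts that is no bound, 3.74 for Loxl4, 3.57 for Ppard, 2.54 for Id3, 2.27 for H2-Ab1, 2.24 for Ifit3, 1.92 for Ifi27l2a and 1.57 for Mpeg1, and -4.40 for Ankrd37. When each of the 20 livers was left out in turn, the interaction stayed called in 20 of 20 omissions for Ppard, Id3 and Mpeg1, in 12 for Ifit3, in 10 for Loxl4 and Ankrd37, in 8 for Ifi27l2a and in 7 for H2-Ab1 and Gli1.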

How the results depend on the processing

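DESeq2's size factors called 100 genes with CORT, library sizes without the 20 most abundant genes 95, and filters on low counts 97 or 105, all within 1.5 times of the 96. DESeq2's Wald test called 211 with CORT (177 higher, 34 lower), an unadjusted p 520 (417 higher, 103 lower), no fold limit 154 (52 lower), and the compared groups alone 27 (24 higher, 3 lower). Leaving out 1 liver gave 52 to 191 (44 to 151 higher, 7 to 40 lower). The count without CORT was 87 to 343 with 1 liver left out, 537 with an unadjusted p and 826 without a fold limit. The interaction count was 6 to 101 with 1 liver left out, 35 with DESeq2's size factors, 41 without the 20 most abundant genes, 188 with the Wald test, 53 without a filter, 60 with at least 10 counts in every liver and 791 with an unadjusted p. The causes were not tested. Without the vehicle liver that stood apart, 116 genes were called with CORT (98 higher, 18 lower).

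The replicate numbers name different mice and did not pair the livers (correlations of deviations between -0.169 and 0.041 for the CORT groups). A replicate block gave 90 genes with CORT (77 higher, 13 lower), 185 without CORT and 20 interactions. Of the 96 called genes, 81 stayed called under the block.

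None of the 96 called genes changed sign under any alternative, and 22 kept their call under all those in which they were tested. Uncalled genes with values near 0 changed sign. Fasn was at -0.01 with DESeq2's size factors, its Wald test and the filter at 10 counts, Scd1 at 0.044 with the block, and with 1 liver left out Fasn ranged from -0.45 to 0.32, Scd1 from -0.39 to 0.23, Nr3c1 from -0.14 to 0.065 and Dbi from -0.11 to 0.086. Depth limits genes near the floor, such as H2-Oa and Kcnk3.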
